A study of Homo sapiens with 6 samples.

Results

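The comparison described here is that of 1 MRCKα KO library with 2 vector control libraries of MDA-MB-231, an established human cell line of triple-negative breast cancer derived from a metastatic site. Genes were considered when they had at least 50 expected counts in the knockout library or in both vector libraries, which left 11109 of the 17064 genes listed. Of these, 6618 genes (59.6%) had an FPKM in the knockout outside the range of the 2 vector values and are the genes described. The remaining 4491 genes lay within that range. FPKM scales the fragments of a gene by its transcript length and by the library size, so levels can be compared between genes. In RNA from whole cultures, fewer cells with a transcript and less of it per cell cannot be told apart.

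The cells had been transduced with lentiCRISPRv2, a lentivirus that carries Cas9 and a guide RNA, and selected as pools without picking clones. The MRCKα KO genotype is given as CDC42BPA knockout, the vector cells received the virus without a guide in 2 separate transductions, and RNA was taken from subconfluent cultures. The other libraries of the study, 1 of an MRCKβ KO (CDC42BPB knockout) and 2 of the double knockout (DKO), are used below for the spread and for side-by-side values. All 4 knockout libraries were set against the same 2 vector libraries. Which guide made the MRCKα KO library is not given in the sources used here, and a single pool cannot show whether a difference follows the knockout or that pool.

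MRCKα and MRCKβ are serine/threonine kinases that bind active CDC42, a small GTPase of the cell front. They share substrates with the ROCK kinases: they phosphorylate MYPT1, the targeting subunit of myosin phosphatase, and activate LIMK, which inactivates the actin-severing protein cofilin. In this way they raise myosin II activity and stabilise actin filaments, and in tumor cells the pathway is studied for its part in invasion and in remodelling of the collagen matrix.

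Most of the 6618 genes lay very close to the vector range. For 3731 of them (56.4%) the knockout value was less than 1.1-fold beyond the nearer vector value. In all, 33.8% of the considered genes (3757) were above both vector libraries and 25.8% (2861) were below both, and the median distance to the nearer vector value was 0.11 above and -0.12 below on the log2 scale. With counts scaled by TMM in place of FPKM the numbers above and below were 3356 and 3172, and with DESeq2 size factors 3333 and 3177. The vector libraries themselves were separated by a median of 0.21. The distance was computed as log2 of (FPKM + 0.1), which understates the change of low genes. Because the vector range chose these genes, their distances are given as descriptions without a test. A distance of at least 1.5-fold was reached by 117 genes above (1.05% of those considered) and 91 genes below (0.819%), and at least 2-fold by 35 above and 13 below. The same limit of 1.5-fold was passed by 68 and 38 genes in MRCKβ KO, by 85 and 34 in DKO 1 and by 121 and 115 in DKO 2.

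A fit over all 6 libraries called no gene. edgeR's quasi-likelihood test, which takes the spread from the vector and DKO pairs and assumes that the lone knockout library varies like them, gave 0 of 13764 tested genes an adjusted p under 0.05 (0%). At an unadjusted p under 0.05 it had 415 genes (3.02%), 180 higher and 235 lower, and DESeq2 had 164 with 0 after adjustment. Every value below therefore comes from 1 knockout library with no replicate of its own, and the SE beside some log2 changes is that of the edgeR fit.

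**Figure D1:**
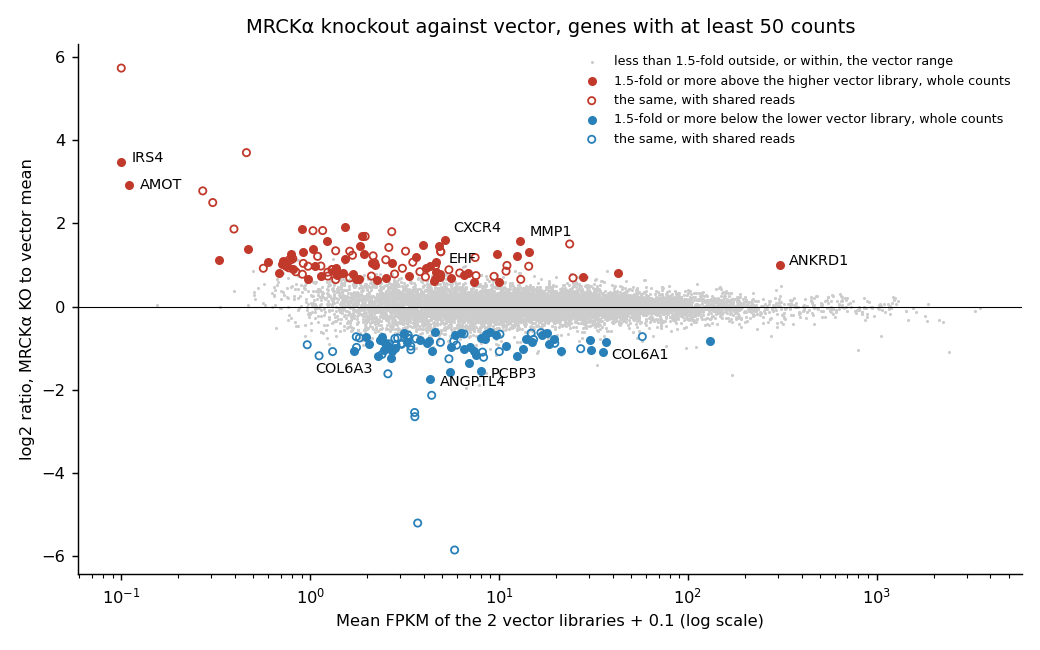
Ratio of MRCKα KO to the vector mean against the vector mean, with 1 point per gene for the 11109 genes with at least 50 counts. Red and blue points are the 117 and 91 genes at least 1.5-fold outside the vector range, filled where the expected counts were whole in the 3 libraries and open where reads were shared with another gene.

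The RNA of the targeted gene does not tell the knockout from the control. CDC42BPA (GRCh38, chromosome 1, 226989865 to 227318474, minus strand, protein coding) had an FPKM of 36.43 in vector 1, 23.32 in vector 2 and 29.43 in MRCKα KO, so the knockout was inside the vector range. In MRCKβ KO and the DKO libraries CDC42BPA stood at 34.94, 28.31 and 26.06. Small insertions or deletions at a Cas9 cut need not alter the amount of a transcript, and no value here checks the label. CDC42BPB, the gene of MRCKβ, was at 27.29 in the knockout and at 30.28 and 29.11 in the vector libraries, a distance of -0.09.

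The libraries were alike in depth, with totals of 10349898 to 10657857 expected counts, so that 3 counts, the limit that a count of 0 allows, were at most 2.90e-05% of a library. All 12 markers of MDA-MB-231 cells (among them VIM, CD44, AXL and CAV1) were present in every library. In MRCKα KO 2 of them were above the vector range, 4 within and 6 below, where 33.8% of all genes considered were above and 25.8% below. Of 7 luminal markers 5 were under the count minimum, among them EPCAM with 48 and 44 counts in the vector libraries and 13 in MRCKα KO. Of GATA3 and ERBB3, which reached the minimum, 1 was within the vector range by FPKM and 1 below. By counts GATA3 (75 and 105 against 86), ERBB3 (71.6 and 46.2 against 57.4), ESR1 and CDH1 lay between the vector libraries. FOXA1 was above (1 and 4 against 6) and PGR below (3 and 4 against 1). Fibroblast markers summed to 694 counts in vector 1, 263 in vector 2 and 314 in MRCKα KO, mainly through PDGFRB and COL1A1, and FAP, POSTN and PDGFRA had at most 2 counts in any library. Leukocyte markers were carried by CD68 (1358 and 1896 counts against 1287) and LYZ (121 and 138 against 97.0), both below the vector range. PTPRC, under the count minimum, was above by counts (23.0 and 7.05 against 33.6), and CD14 lay between (14 and 2 against 7). CD3E and CD79A had at most 1 count. Vector 2 stood apart from all other libraries for targets of NRF2, as described below.

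One property of the transcripts moved with the side on which a gene lay. Genes were ranked by the GC content of their longest GENCODE v29 transcript and divided into 5 groups of equal size. Of the group with the least GC (30.2% to 40.8%), 44.4% were above both vector libraries and 16.8% below in MRCKα KO. Of the group with the most GC (57.9% to 74.5%), 19.5% were above and 40.4% below. The median log2 ratio to the vector mean went from 0.08 to -0.08 across the groups. The medians of the ratio of vector 2 to vector 1 stayed between -0.025 and 0.007. In the other knockout libraries the group with the most GC lay above the one with the least, at 0.03 against -0.01 in MRCKβ KO, 0.05 against 0.00 in DKO 1 and 0.07 against -0.01 in DKO 2. The shift is small beside a 1.5-fold distance, but it is of the size of most of the 6618 distances, and gene groups are therefore set below against all genes of the same GC makeup. With the MRCKα KO values shifted by the median ratio of genes of like GC content, 3210 genes were above and 3163 below. What produced the GC shift was not tested.

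Among the genes above the vector range, several encode proteins of the cell surface and of the extracellular space that are known from tumor invasion. CXCR4, the receptor of the chemokine CXCL12, had an FPKM of 4.86 and 5.23 in the vector libraries and 15.61 in MRCKα KO. This is 3.09-fold of the vector mean (5.05 ± 0.26, SD, n = 2), and the counts of 87, 91 and 272 give a ratio of 2.98 to the nearer vector library with an exact 95% interval of 2.35 to 3.83, which covers counting error only. CXCR4 was also above the vector range in DKO 1 at 10.64, but below it in MRCKβ KO at 4.70 and in DKO 2 at 2.83.

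MMP1, the interstitial collagenase that cuts fibrillar collagen, was likewise highest in MRCKα KO. Its FPKM was 11.66 and 14.10 in the vector libraries and 38.46 in MRCKα KO, while MRCKβ KO was at 17.44 and the DKO libraries at 33.43 and 11.18. The fitted log2 change of MMP1 was 1.56 ± 0.54 (SE), and that of CXCR4 was 1.61 ± 0.64. EHF, an epithelial transcription factor of the ETS family, was at 4.56 and 4.91 in the vector libraries and 13.09 in MRCKα KO, with 6.44 in MRCKβ KO and 11.02 and 5.03 in the DKO libraries. For all 3 genes MRCKα KO was the highest library and DKO 1 the next, whereas DKO 2 lay below both vector libraries for CXCR4 and MMP1 and just above them for EHF.

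CLDN1, a protein of tight junctions, was at 2.08 and 1.39 in the vector libraries and at 4.92 in MRCKα KO, with 77, 50 and 177 counts. ESRP2, a splicing regulator of epithelial cells, was at 1.18 and 1.38 against 2.22. EPCAM, an epithelial surface protein that is under the count minimum, was lower in the knockout. MYCT1 had the largest FPKM distance among genes with whole counts that were not at or near 0 in the controls, with 1.60 and 1.25 in the vector libraries and 5.62 in MRCKα KO. Its counts of 50, 33 and 113 differ less, by 2.32-fold from the nearer vector library (interval 1.65 to 3.31), because the transcript length assigned to it was 1946 bases in the knockout and 2933 and 2546 in the vector libraries. Further genes at least 2-fold above the higher vector library were CYP24A1, which breaks down vitamin D, with 23, 25 and 60 counts, and the cancer-testis gene MAGEA11 with 24, 10 and 63 counts. MAGEA11 was at 0.00 FPKM in DKO 2 and DTX3 at 0.19, against 3.18 and 3.61 in MRCKα KO.

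**Figure D2:**
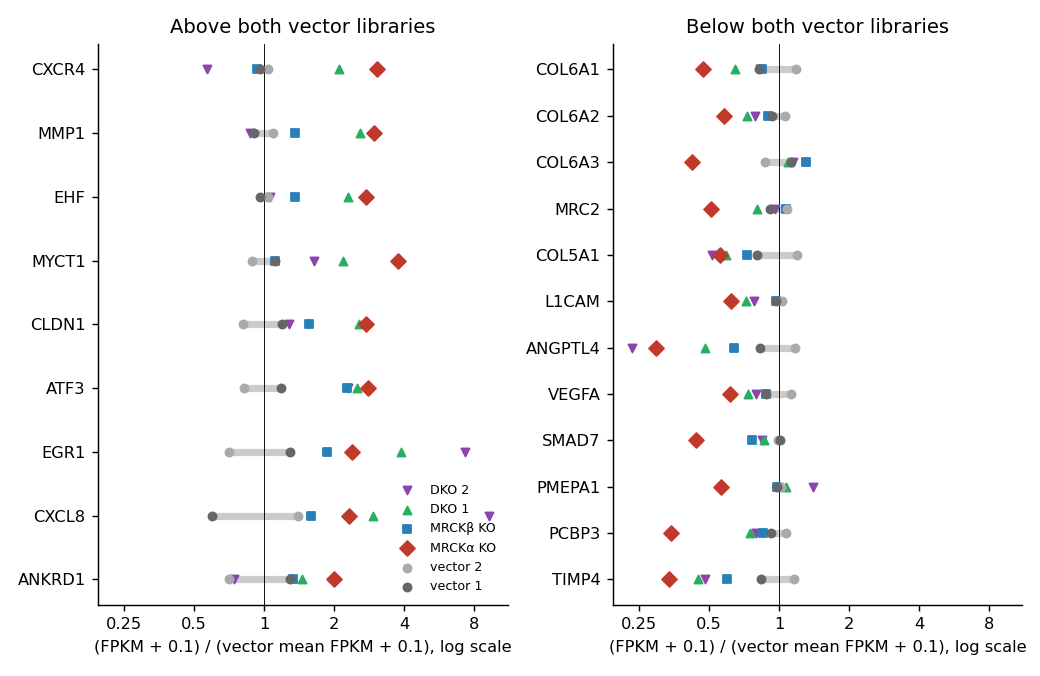
FPKM of named genes in each library relative to the vector mean, on a log scale, with a grey bar between the 2 vector values. MRCKα KO (red) lies outside the bar for every gene by construction, whereas the positions of MRCKβ KO and the DKO libraries differ from gene to gene.

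Immediate early genes, which are switched on within minutes by growth factors and stress, had 14 of 30 members above the vector range, 10 within and 6 below, with a median log2 ratio of 0.04 against 0.03 over all genes considered. Of all genes of the same GC makeup 28.8% were above. The 3 members at least 1.5-fold outside the range, ATF3, EGR1 and FOSB, were all above, but FOSB passed the count minimum only through the knockout, where it is high. ATF3 had an FPKM of 4.56 and 3.15 in the vector libraries and 10.96 in MRCKα KO, 2.84-fold of the vector mean, and was at 8.85, 9.84 and 8.95 in MRCKβ KO, DKO 1 and DKO 2. The fitted log2 change of ATF3 was 1.51 ± 0.28 (SE), and all 4 knockout libraries were above both vector libraries for this gene. EGR1 was at 12.49 and 6.81 in the vector libraries and 23.23 in MRCKα KO, with 18.11 in MRCKβ KO and 37.51 and 70.82 in the DKO libraries. For EGR1 the MRCKα KO value was thus above MRCKβ KO but below both DKO libraries. FOSB, at 0.87, 0.51 and 1.64, rests on 34, 20 and 64 counts, and MYC was at 83.68 and 61.19 against 96.13. KLF10 and FOSL2 were below, with distances of -0.30 and -0.30.

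Chemokines and genes of the NF-κB response had 8 of 28 members above (28.6%), 16 within and 4 below (14.3%), where all genes of the same GC makeup had 31.8% above and 27.6% below. CXCL8, the chemokine interleukin 8, was at 7.31 and 17.31 in the vector libraries and at 28.52 in MRCKα KO, and TNFAIP3, an inhibitor of NF-κB, was at 1.74 and 2.47 against 4.32. Both stood higher still in DKO 2, at 114.61 and 8.56. ICAM1 was at 9.21 and 11.66 against 17.12, where reads were shared with another gene. IL1B, a cytokine induced by NF-κB, went the other way with 4.61 and 8.98 in the vector libraries and 2.60 in MRCKα KO, and it was at 6.71, 9.08 and 14.81 in the other knockout libraries. Vector 2 was above vector 1 by a median of 0.50 (log2) over this list, so the vector range was wide.

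Below the vector range the chains of collagen VI stood out. Collagen VI is a heterotrimer that forms beaded filaments around cells, and its α1, α2 and α3 chains are encoded by COL6A1 (chromosome 21 from 45981737 to 46005050, GRCh38), COL6A2 (chromosome 21 from 46098097 to 46132849) and COL6A3 (chromosome 2 from 237324003 to 237414375). COL6A1 had an FPKM of 28.87 and 41.57 in the vector libraries and 16.56 in MRCKα KO, a fitted log2 change of -1.11 ± 0.27 (SE). COL6A2 was at 18.18 and 20.75 against 11.30 (-0.81 ± 0.18), and COL6A3 at 2.94 and 2.25 against 1.04 (-1.46 ± 0.26).

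The knockout value of each chain was the lowest of the 6 libraries. In MRCKβ KO, DKO 1 and DKO 2, COL6A1 was at 29.70, 22.70 and 29.13, COL6A2 at 17.39, 14.22 and 15.26, and COL6A3 at 3.42, 2.85 and 3.01. By counts, COL6A3 had 97 in the knockout and 224 in the nearer vector library, a ratio of 0.43 with an exact 95% interval of 0.34 to 0.55. MRC2, the endocytic receptor that takes up collagen for degradation, was at 6.28 and 7.50 in the vector libraries, 3.48 in MRCKα KO and between 5.53 and 7.38 in the other knockout libraries (7.38, 5.53 and 6.63).

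COL5A1, a chain of collagen V, had an FPKM of 9.98 and 14.79 in the vector libraries and 6.85 in MRCKα KO, but was also at 8.99, 7.29 and 6.31 in MRCKβ KO and the DKO libraries. TNC, the matrix glycoprotein tenascin C, was at 16.32 and 16.80 against 10.67, and in the other knockout libraries at 16.34, 16.15 and 20.54. Over all 26 collagen and laminin genes considered, 14 were below the vector range, 7 within and 5 above, and the median log2 ratio was -0.29. It was -0.31 relative to vector 2 and -0.18 relative to vector 1. All genes of the same GC makeup had 32.4% below and a median of -0.03, while 53.8% of this list was below. Of the 5 genes above, 1 was at least 1.5-fold outside the range, as were 4 of those below. COL12A1 and COL8A1 lay above by less, at 22.25 against 20.02 and 15.70 and at 196.47 against 158.81 and 187.50. COL7A1, within the range, shows how far the vector libraries can differ, with 148 and 1351 counts against 192 in the knockout.

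The list of matrix proteases and invasion genes was divided. MMP1 and CXCR4, above, were its only members at least 1.5-fold outside the range, followed by HAS2, a hyaluronan synthase (1.80 and 2.44 against 3.70), and ADAMTS6 (225 and 224 counts against 328). By contrast, 12 of 26 members (46.2%) were below, against 27% of all genes of the same GC makeup, and the median was -0.24. Among the 21 members with whole counts the median was only -0.08. Those farthest below were the membrane proteases ADAM19 (7.86 and 10.77 against 5.70), ADAM12 and ADAM8 (5.98 and 6.51 against 4.52). PLAU, the urokinase that activates plasminogen, was at 73.88 and 40.76 against 32.41. TIMP4, an inhibitor of metalloproteinases that is not in the list but among the 20 genes farthest below, had 79 and 108 counts in the vector libraries and 30 in MRCKα KO. TIMP4 was also low in the other knockout libraries, with FPKM of 3.18, 2.37 and 2.53 against 4.48 and 6.30 in the vector libraries.

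Integrins and adhesion genes had 15 of 28 members below, 10 within and 3 above, where 27.2% of all genes of the same GC makeup were below. The median log2 ratio was -0.14, with -0.19 relative to vector 1 and -0.05 relative to vector 2. L1CAM, a neural cell adhesion molecule found in invasive tumors, was at 16.36 and 17.26 in the vector libraries and 10.45 in MRCKα KO, the lowest of the 6 libraries, with a fitted log2 change of -0.69 ± 0.16 (SE). ITGA3, the laminin-binding integrin α3, was at 254.44 and 276.85 against 205.47, and ITGA2 of the collagen receptor at 20.73 and 18.26 against 14.84. ITGB4 was at 7.15 and 3.55 against 2.62, with 2.94 and 2.20 in the DKO libraries. The GO term cell adhesion had 19 of 52 genes above (36.5%) and 16 below (30.8%), close to the 31.6% and 27.8% of all genes of the same GC makeup. At least 1.5-fold outside were 5 of the 52 above and 2 below, where all genes considered had 1.05% and 0.819%. The integrin-like ITGBL1 (1.45 and 1.41 against 3.28, from 46, 36 and 78 counts) and IL18 (30.75 and 16.38 against 67.11, shared reads) were above.

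SMAD7 and PMEPA1, which are both induced by TGF-β and restrain its signalling, were each well below closely spaced vector values. SMAD7 was among the 20 genes farthest below, and PMEPA1 was named after its values were seen. SMAD7 had an FPKM of 2.21 and 2.15 in the vector libraries and 0.90 in MRCKα KO, with 63, 63 and 29 counts. PMEPA1 was at 4.11 and 4.25 against 2.32, with 216, 217 and 115 counts. The other knockout libraries were at 1.64, 1.86 and 1.83 for SMAD7 and at 4.10, 4.50 and 5.91 for PMEPA1, so that the MRCKα KO value was the lowest for both. PCBP3, an RNA-binding protein, had the greatest distance below among genes with whole counts after ANGPTL4, at 7.36 and 8.53 against 2.66, and was between 5.95 and 6.74 in the remaining libraries (6.74, 5.95 and 6.30). Its fitted log2 change was -1.59 ± 0.28 (SE). The nerve growth factor receptor NGFR (95, 77 and 39 counts), CLTCL1 of the clathrin family (214, 195 and 111 counts) and the sugar phosphate exchanger SLC37A1 (83, 87 and 37 counts) were further genes of this group.

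Most genes of hypoxia and glycolysis lay below the vector range, at small distances. Of 33 genes considered 23 were below, 9 within and 1 above, or 69.7% below where all genes of the same GC makeup had 30.1%. The median log2 ratio was -0.20 against -0.01 for those genes, and it was -0.29 relative to vector 1 and -0.13 relative to vector 2. In MRCKβ KO the median was 0.12, in DKO 1 -0.15 and in DKO 2 -0.25.

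The promoters of 4 of these genes are shown because the core letters bound by hypoxia-inducible factors are a known element of glycolysis genes. For 20 of the 23 genes below, RefSeq (GRCh38.p14) gave a sequence, and 8 of them (40%) held the letters ACGTG on either strand within the 250 bases before the start site. The share was 37.9% (11 of 29) for all genes of the list, wherever they lay, and 15.1% for all genes at least 1.5-fold below. Of all genes considered with a promoter 24.2% held them, and of all promoters 18.7%. LDHA, GAPDH and PGK1, the only ones with more than 1 match, and ANGPTL4, the only gene of the list at least 1.5-fold below, are given 5′ to 3′ with the matches in capitals, and a capital stretch of CACGTG counts as 2 matches that overlap. The positions are chr11:18394313-18394562 for LDHA, chr12:6535014-6535263 for GAPDH, chrX:78103998-78104247 for PGK1 and chr19:8363905-8364154 for ANGPTL4, all on the plus strand. A match is a description of the letters and not a binding site.
LDHA: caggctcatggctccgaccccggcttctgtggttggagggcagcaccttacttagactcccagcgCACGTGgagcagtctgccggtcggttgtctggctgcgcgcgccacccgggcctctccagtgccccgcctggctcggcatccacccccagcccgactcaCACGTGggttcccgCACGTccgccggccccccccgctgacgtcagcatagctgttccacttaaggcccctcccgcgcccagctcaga
GAPDH: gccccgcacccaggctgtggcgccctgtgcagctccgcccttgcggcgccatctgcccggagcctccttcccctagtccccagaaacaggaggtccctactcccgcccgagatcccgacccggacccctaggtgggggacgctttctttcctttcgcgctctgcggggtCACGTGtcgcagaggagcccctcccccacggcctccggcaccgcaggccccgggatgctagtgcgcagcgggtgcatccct
PGK1: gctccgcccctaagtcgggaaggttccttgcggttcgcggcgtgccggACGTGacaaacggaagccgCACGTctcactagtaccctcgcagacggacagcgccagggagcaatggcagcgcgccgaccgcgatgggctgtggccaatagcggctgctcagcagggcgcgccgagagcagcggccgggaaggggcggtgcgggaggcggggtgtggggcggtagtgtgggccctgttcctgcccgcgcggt
ANGPTL4: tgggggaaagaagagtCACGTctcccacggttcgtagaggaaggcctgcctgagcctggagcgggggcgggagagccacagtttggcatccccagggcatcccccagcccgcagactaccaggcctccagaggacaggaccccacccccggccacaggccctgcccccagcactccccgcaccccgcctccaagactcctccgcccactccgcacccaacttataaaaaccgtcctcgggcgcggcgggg

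The enzymes of glycolysis are among the most abundant transcripts of these cells, so their counts are large. GAPDH, with 2 overlapping matches above, had an FPKM of 1964.82 and 2502.05 in the vector libraries and 1718.65 in MRCKα KO, the lowest of the 6 libraries. ALDOA, the aldolase of this pathway, was at 441.19 and 489.26 against 347.46, and ENO1, an enolase, at 885.93 and 852.18 against 692.19. LDHA, which makes lactate and has the most matches above, was only a little below, at 868.66 and 807.37 against 769.32. PGK1, with 2 separate matches, was at 257.20 and 224.03 against 209.91. The glucose transporter SLC2A1 was at 112.71 and 95.12 against 78.23.

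Larger distances were found for secreted factors of the same list. VEGFA, the growth factor of blood vessels, was at 56.89 and 72.92 in the vector libraries and 39.93 in MRCKα KO, with a fitted log2 change of -0.80 ± 0.21 (SE), and at 57.25, 47.54 and 51.54 in the other knockout libraries. ANGPTL4, a secreted inhibitor of lipoprotein lipase whose promoter has 1 match, was at 3.48 and 4.99 against 1.19. Its counts of 68, 98 and 23 give a ratio of 0.35 to the nearer vector library (interval 0.21 to 0.57). DKO 2 had still less ANGPTL4, at 0.91. PFKM was the 1 member above, with a distance of 0.07, and EGLN3 was the member nearest the count minimum, with 50 counts in each vector library and 35 in the knockout.

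Genes of antigen presentation, a list with genes of both MHC class I and class II, were also below in most cases. Of 18 genes considered 13 were below, 4 within and 1 above, or 72.2% below against 31.7% of all genes of the same GC makeup, and the median log2 ratio was -0.35. The median was -0.13 relative to vector 1 and -0.46 relative to vector 2, since vector 2 was the higher control for this list. TAPBP, the tapasin that loads peptides on class I molecules, was at 63.14 and 61.62 in the vector libraries and 43.29 in MRCKα KO, with shared reads. Subunits of the immunoproteasome were below as well, with PSMB10 at 17.12 and 25.07 against 13.15 and PSMB8 at 37.57 and 42.68 against 30.40.

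The exception was HLA-DMA of the class II pathway at 4.94 and 4.56 against 7.79, which was also high in MRCKβ KO (10.07) and DKO 1 (7.89). Of the interferon response genes, 15 of 36 (41.7%) were below and 7 above, with a median of -0.17, and 24.7% of all genes of the same GC makeup were below. The median was -0.22 relative to vector 2 but only -0.01 relative to vector 1. IRF1, a transcription factor that drives class I genes, was at 17.45 and 21.82 against 10.59 with shared reads. Among the 16 genes of this list with whole counts the median was 0.06, so its sign depended on genes with shared reads. IFIT5 and IFI35 were above, with distances of 0.37 and 0.29.

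For NRF2 targets the knockout lay near vector 1, and vector 2 was well above both. NRF2 is the transcription factor that induces genes of antioxidant defence. NQO1, its best-known target, had an FPKM of 75.73 in vector 1, 268.27 in vector 2 and 54.84 in MRCKα KO, and between 57.10 and 77.10 in the other knockout libraries (64.49, 57.10 and 77.10). FTL, the ferritin light chain, was at 1240.85 and 3595.62 against 1132.20. Over 21 genes the median log2 ratio was -0.58 to the vector mean, but -0.73 to vector 2 and only -0.05 to vector 1. None of the 21 was above both vector libraries and 12 (57.1%) were below, against 26.3% of all genes of the same GC makeup. ME1 and AKR1C3 lay farther below both vector libraries than these differed, with ME1 at 14.61 and 14.95 against 9.87, and AKR1C3 at 24.20 and 29.75 against 13.29 with shared reads.

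The genes of the MRCK pathway itself lay close to the vector range. Of 44 genes listed 41 were considered, of which 10 were above (24.4%), 18 within and 13 below (31.7%), with a median log2 ratio of 0.03 to the vector mean and -0.06 to vector 1. All genes of the same GC makeup had 32.6% above and 26.8% below. LURAP1L, a relative of LURAP1, the adaptor that links MRCK to the unconventional myosin MYO18A, was the only member at least 1.5-fold outside, at 1.55 and 1.73 in the vector libraries and 2.65 in MRCKα KO on 36, 30 and 54 counts. LURAP1L passed the count minimum only through the knockout, where it is high. It was above the vector range in the other knockout libraries too, at 3.01, 2.51 and 2.12.

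Among the related kinases, ROCK1 was at 28.90 and 20.24 in the vector libraries and 36.73 in MRCKα KO, the highest of the 6 libraries, while ROCK2 was at 27.50 and 27.93 against 22.64, the lowest. CDC42, the upstream GTPase, was within the range at 138.96, 124.08 and 136.81. RAC1 was just above at 218.71 and 214.47 against 234.85, and RHOA was within.

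Of the downstream genes, LIMK1 was at 23.53 and 22.66 against 21.11 and LIMK2 was above by a distance of 0.07. Cofilin, CFL1, was at 890.43 and 1053.08 against 832.82. MYH9, the main heavy chain of myosin II in these cells, was at 142.45 and 152.67 against 125.68, and MYH10 was within the range. The light chains MYL12A and MYL12B were above by distances of 0.14 and 0.09, PPP1R12A, which encodes MYPT1, was within, and the ERM protein radixin (RDX) was at 45.90 and 41.72 against 55.49. CDC42BPG and LURAP1 had 5 and 3 counts in the knockout, below the minimum.

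Targets of SRF and YAP, which respond to actin tension, were split, with 9 of 30 above (30%), 8 within and 13 below (43.3%) and a median of 0.02. All genes of the same GC makeup had 29.5% above and 29.5% below. ANKRD1, a YAP target and one of the most abundant of the genes far above the range, was at 398.00 and 216.55 in the vector libraries and 613.79 in MRCKα KO, and at 407.73, 447.91 and 226.92 in the other knockout libraries. The counts of 8430, 4457 and 12651 leave counting error small (a ratio of 1.54 to the nearer vector library), but the vector libraries alone differed by more than this ratio. F3, tissue factor, was at 324.75 and 257.86 against 383.40. Below were FLNA, the actin crosslinker filamin A (341.31 and 375.29 against 269.66), ACTN4 (435.26 and 412.65 against 347.82) and TAGLN2 (262.85 and 282.02 against 220.24).

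Several housekeeping groups are given for comparison. Of 85 ribosomal protein genes 26 were above (30.6%) and 13 below (15.3%), with a median of 0.04. All genes of the same GC makeup had 33.3% above and 25.6% below. Of 36 mitosis genes 7 were above (19.4%) and 8 below (22.2%), with a median of -0.06. At the same GC makeup 38.3% were above and 21.2% below, with a median of 0.05. MKI67, the marker of dividing cells, was above the range at 68.71 and 65.41 against 82.18, unlike the median of the mitosis list. That median was 0.05 relative to vector 1 and -0.15 relative to vector 2. Of 26 genes of cholesterol synthesis 3 were above (11.5%), 23 within and 0 below, where the same GC makeup had 31.8% above and 27.6% below. The vector range was wide for this list, with a median log2 ratio of vector 2 to vector 1 of -0.65. Nuclear genes of oxidative phosphorylation had 38 of 77 above (49.4%, against 33.7% at the same GC makeup) at a median of 0.07, with UQCRB (24.90 and 24.20 against 39.63, shared reads) and NDUFA6 (33.22 and 28.23 against 43.02) farthest out and COX8A below (284.98 and 305.64 against 225.03).

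Replication histones showed the largest median, 0.82, but only 6 of 43 listed genes were considered. All 6 were above the vector range, against 32.9% of all genes of the same GC makeup, and 4 of them by at least 1.5-fold. Only HIST1H1C had whole counts. HIST1H1C, a linker histone, was at 48.63 and 36.92 in the vector libraries and 74.42 in MRCKα KO with 366, 270 and 545 counts, and DKO 1 had nearly the same level at 72.83. HIST1H2BD was at 11.61 and 10.22 against 21.77 and HIST1H2AC at 11.94 and 9.65 against 19.55, both with shared reads. HIST2H2AA3 and HIST2H2AA4, which are copies of each other and not in the list, had identical values of 5.11, 4.52 and 12.17 and count as 1 measurement. Replication histone mRNA mostly lacks a poly(A) tail, and how the libraries selected RNA is not given in the sources used here.

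A small set of transcripts was found in MRCKα KO and at or near 0 in the vector libraries. IRS4, an adaptor of insulin signalling known for its abundance in HEK293 cells, had 70 counts in MRCKα KO, 0 in both vector libraries and MRCKβ KO, 2 in DKO 1 and 0 in DKO 2. Against a limit of 3 counts per library this is at least 23.3-fold higher. AMOT, angiomotin, had 0 and 1 counts in the vector libraries and 56 in MRCKα KO, a ratio of 55.9 to vector 2 with an exact 95% interval of 9.63 to 2250, and 0, 4 and 2 counts in the other libraries. Both genes lie on the X chromosome, AMOT from 112774503 to 112840815 and IRS4 from 108732482 to 108736409 (GRCh38).

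The same library held low counts of other genes that were at 0 in the vector cells. Of the 10 genes listed as markers of HEK293T cells, a human kidney line used to make lentivirus, 6 are in the table and 5 were detected in MRCKα KO, against 2 in vector 1 and 1 in vector 2. Their summed counts were 51.6 in MRCKα KO, 21.6 and 11.4 in the vector libraries, and 6.82, 22.7 and 14.4 in MRCKβ KO and the DKO libraries. NEFM had 19 counts and LIN28B 10 in MRCKα KO, and both had 0 in the vector libraries, with 2 and 1 in DKO 1. GAL and HOXA9 had 4 and 3 counts in MRCKα KO and 0 elsewhere. DPPA4 was similar in all libraries, and STMN2 was found in vector 1 only, at 6 counts.

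CDKN2A, which is deleted in MDA-MB-231, had 19 counts in MRCKα KO and 0 in all other libraries. Its neighbour MTAP, deleted with it, had 20.4 counts in MRCKα KO, 2.89 and 3.20 in the vector libraries, and 5.47, 6.13 and 10.7 in the rest. IGF2BP1 with 25 counts, NETO2 with 11, and UCHL1 and BEX4 with 8 each, which were named after their values were seen, also had 0 in both vector libraries and at most 2 in any other library. The part of these transcripts in the values of IRS4 and AMOT, or of other genes above the vector range, was not tested, and neither was whether this library holds RNA of HEK293T or other cells.

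**Figure D3:**
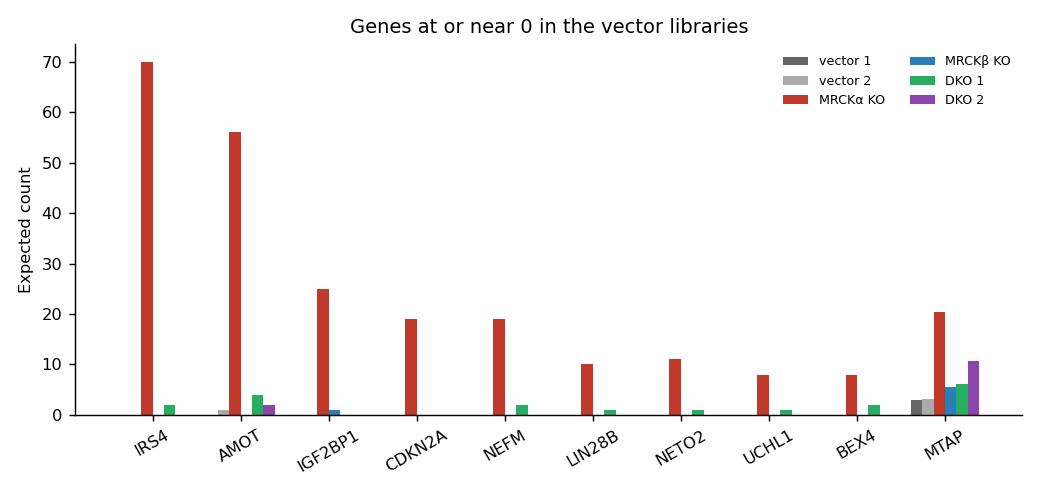
Expected counts of 10 genes at or near 0 in the vector libraries, in each of the 6 libraries. IRS4 (70), AMOT (56), IGF2BP1 (25), CDKN2A (19) and NEFM (19) are seen in MRCKα KO and have at most 4 counts in any other library.

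At the extremes, many genes had counts that were not whole, which shows that reads were divided between a gene and another one. Whole counts in the 3 libraries were found for 60.1% of the considered genes, for 62 of the 117 genes at least 1.5-fold above and for 52 of the 91 below. U2AF1L5 (0.00 and 0.00 against 5.25), TGIF2-C20orf24 (0.72 and 0.00 against 5.90) and C7orf55-LUC7L2 (0.34 and 0.00 against 1.76) were among the 5 genes farthest above the vector range, with IRS4 and AMOT. SERF1A (6.68 and 4.76 against 0.00) and LOC101929839 (2.96 and 4.26 against 0.00) were lowest. TGIF2-C20orf24 and C7orf55-LUC7L2 are readthrough genes, and U2AF1L5 and SERF1A have near-identical copies. Several were at 0 in one library and not in another of the same group, as with SERF1A at 5.61 in DKO 1 and 0.00 in DKO 2. PTCD1 was at 0.57 and 1.56 against 4.04 while its readthrough partner ATP5J2-PTCD1 was at 6.01 and 4.65 against 2.17, so the pair shows opposite differences on shared sequence. All such values are uncertain.

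The count minimum cut through a continuous range. Just inside it were FBXO36 with 25, 17.2 and 50 counts in vector 1, vector 2 and MRCKα KO, EGLN3 with 50, 50 and 35, and LOC105373989 with 98, 50 and 37. Just outside were MTMR7 with 47, 33 and 49.99, BCL2L15 with 43.3, 39.98 and 49.7, and ZNF286B with 49.8, 69.6 and 39.5. Of the 6618 genes outside the vector range, 6302 had 50 counts in all 3 libraries, 223 in the knockout but not in both vector libraries, and 93 only in the vector libraries. The last 2 groups entered through the side on which they are high, and 220 of the 223 were above and 92 of the 93 below. Of the genes named above, IRS4, AMOT, FOSB, LURAP1L, MYCT1, CYP24A1, MAGEA11 and ITGBL1 are among those that entered through the knockout. SMAD7, NGFR, SLC37A1, TIMP4 and ANGPTL4 are among those that entered through the vector libraries. Among the 10665 genes with 50 counts in all 3 libraries, 51 were at least 1.5-fold above and 61 at least 1.5-fold below.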

How the data were processed

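Sequencing of the 6 RNA libraries was done by BGI on the BGISEQ-500 platform. Per the labels, reads were processed with HISAT, Bowtie2 and RSEM on GRCh38.p11. The deposited expected counts are the authors' RSEM estimates per gene, not normalized, and the deposited FPKM values are scaled by transcript length and library total and rounded to 2 decimals. Samples were grouped by genotype from the labels. For each gene the MRCKα KO value was set against the vector range. Log2 values were taken after adding 0.1 FPKM. Expected counts were rounded for edgeR 4.0.16 (R 4.3.3; filterByExpr, TMM, quasi-likelihood test over 6 libraries in 4 groups without a block, Benjamini-Hochberg, threshold 0.05), which was tested on simulated data, and for DESeq2 1.42.0. Counts within 0.05 of a whole number were taken as whole. Intervals of count ratios are exact (Clopper-Pearson) and, as the reads carry no molecular identifiers, cover counting error only. Replicates within vector and DKO are separate transductions or guides, so their spread includes these.

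GC content was taken from GENCODE v29 transcripts (GRCh38) matched by Entrez gene ID for 11036 of 11109 genes, and comparison shares weight the 5 GC groups by a list's own makeup. The genes described and the 25 gene lists were chosen with earlier results of these data known. Named are members of the MRCK pathway list, the 20 genes farthest above and below, the 4 farthest members of each list on each side and the genes next to the count minimum, and any gene named outside this rule was chosen after its values were seen. Alternatives were another count minimum, scaling, pseudocount or filter, DESeq2, fewer libraries, whole counts only and a GC shift. The values of 1 gene are not reported here.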

Additional observations from a re-analysis of the deposited data

How the results depend on the processing

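The absence of calls held in 9 of 10 alternatives to the edgeR fit, DESeq2 among them, with the lowest adjusted p between 0.00767 and 1 over all of them. Leaving out 1 vector or DKO library gave 0 to 1 calls, the 1 being the cancer-testis gene SPANXA1 (adjusted p = 0.00767 by edgeR without vector 1, where vector 2, high in this gene, is the only control). No paired analysis was possible because MRCKα KO has 1 library and shares only 1 replicate number with the vector group. The count of genes at least 1.5-fold outside the vector range changed most with the controls. Leaving out 1 vector library can only raise this count, because the distance is taken to the nearer vector value. With either vector library alone it was 344 to 691 above and 300 to 386 below, against 117 and 91 with both. A minimum of 20 counts gave 226 above and 168 below, a minimum of 200 counts 32 and 27, and a pseudocount of 1 FPKM 63 and 46, so most of these genes are scarce. Whole counts only, an alternative added after seeing the data, left 6680 genes, of which 2197 were above the range, 1782 below, 62 at least 1.5-fold above and 52 at least 1.5-fold below. With 50 counts in each library, also added, 51 were at least 1.5-fold above. With the GC shift, added as well, 3210 and 3163 genes were above and below, and 100 and 91 at least 1.5-fold. The interferon list was the only one of 12 lists with a median of at least 0.1 in size and 1 sign against both vector libraries to change sign, to 0.058 with whole counts only. The 51 main genes kept their side of the vector range in all 306 recomputed values. For the values with 1 vector library or with another pseudocount this is fixed by the rule. These genes were also named for lying outside the range.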

Other observations

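By chromosome, the share of genes above the vector range in MRCKα KO ran from 23.7% of 249 genes on chromosome 22 to 44.7% of 438 genes on chromosome 10. The share below ran from 14.1% of 163 genes on chromosome 18 to 37.8% of 502 genes on chromosome 16. The median log2 ratio to the vector mean lay between -0.03 (chromosome 22) and 0.10 (chromosome 18). The median log2 ratio of vector 2 to vector 1 was larger in size than these values on chromosome 3 (0.14), chromosome 8 (-0.15) and chromosome 18 (-0.13). Neighbouring genes are not independent, and no test was made.

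The letters TGANTCA, the core recognised by AP-1, were searched on both strands in the 250 bases before the start site. They were present in 8 of 90 promoters of genes at least 1.5-fold above the vector range (8.89%) and in 2 of 73 of those below (2.74%). Of the 9213 genes considered with a promoter sequence 3.63% held them, and of all 27305 promoters 6.6%.

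In the ATF4 stress list, 10 of 25 genes were above (40%), 10 within and 5 below (20%), where all genes of the same GC makeup had 30.6% above and 28.7% below. DDIT3, a transcription factor of the stress response, was at 23.93 and 25.58 FPKM in the vector libraries, 35.17 in MRCKα KO and 35.82, 36.44 and 47.81 in the other knockout libraries. HERPUD1, a protein of the endoplasmic reticulum, was at 29.08 and 19.05 against 41.22, with 49.53, 42.55 and 30.40 in the other knockout libraries. For both genes all 4 knockout libraries were above the 2 vector libraries, which they share as controls.

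Shares in parentheses are those of all genes of the same GC makeup. S100 genes had 1 of 8 above (24.8%) and 3 below (34.1%), and S100A6 was at 2253.37 and 1998.26 in the vector libraries against 1693.54. The EMT and keratin list had 10 of 21 above (30.4%) and 4 below (29.1%). Cancer-testis genes had 7 of 15 above (34.4%) and 2 below (24.4%). The GO terms gave 33 of 118 genes above (33.4%) and 32 below (26.1%) for cell migration, and 11 of 52 above (31.7%) and 21 below (27.8%) for actin cytoskeleton organization. For immune response 0 of 9 were above (29.4%) and 7 below (29.5%), and for inflammatory response 1 of 6 above (34.2%) and 4 below (25.1%).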
